A study of Homo sapiens with 21 samples.

Results

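HAND1 and HAND2 were described here through the accessible chromatin sites assigned to them. Of the 367900 consensus sites of an ATAC-Seq series in neuroblastoma cells, 10 carried the name of either gene as their nearest gene in the deposited annotation, 9 for HAND1 and 1 for HAND2, and these 10 are the sites described. All 10 passed the filter on low counts. A site carries the name of the nearest transcription start, which need not be the gene that it regulates, and 14 further sites that lie upstream of HAND2 carried the name of its divergent antisense gene HAND2-AS1. They are not among the 10 and are given as context.

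HAND1 and HAND2 are basic helix-loop-helix (bHLH) transcription factors of the Twist family. They bind E-box DNA, CANNTG, as dimers with ubiquitous E-proteins such as TCF3, TCF4 and TCF12, whereas ID proteins take up E-proteins without binding DNA. HAND2 is needed for the noradrenergic differentiation of sympathetic neurons, and in adrenergic neuroblastoma it belongs, with GATA3, ISL1 and others, to the circuit of factors that maintain cell identity. ARID1A and ARID1B are alternative structural subunits of the BAF chromatin remodeller, which keeps distal regulatory elements open.

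The cells were SK-N-BE(2), an established line from a human neuroblastoma, and accessibility was measured 72 h after lentiviral transduction of short hairpin RNAs (shRNAs). The 7 groups of 3 libraries were Control, shARID1A.2 and shARID1A.4 against ARID1A, shARID1B.2 and shARID1B.3 against ARID1B, and the pairs shARID1A/B.2.3 and shARID1A/B.4.2 against both genes, here called combined silencing. The numbers in the names of the pairs match shARID1A.2 with shARID1B.3, and shARID1A.4 with shARID1B.2, which the labels do not spell out. Every group, Control included, was transduced, and the labels describe the Control shRNA no further. A single cell line was used, silencing acts on mRNA and was not checked by accessibility, and in a bulk assay fewer cells with an open site and less opening per cell cannot be told apart. The libraries held 16140029 to 44472230 reads in sites. Among adrenergic markers, PHOX2A, GATA3, DBH and TH had a site within 1000 bases of their start and ISL1 had none there. Of the mesenchymal genes, TWIST1, SNAI2 and FN1 also had such sites, and PRRX1 and COL1A1 had none. The epithelial markers CDH1 and EPCAM had such sites too, and the blood marker PTPRC had none. A site at the start therefore did not by itself mark a cell type. Values are CPM, the reads of a site scaled to a common library total with edgeR's TMM factors. In Control the marker sites had 24.0 CPM (PHOX2A), 15.6 (GATA3), 10.3 (DBH) and 2.43 (TH). The mesenchymal ones had 41.2 (TWIST1), 36.0 (SNAI2) and 32.3 (FN1), and the epithelial ones 2.75 (CDH1) and 6.62 (EPCAM). A site is called opened or closed at a false discovery rate (FDR) under 0.01 in edgeR's quasi-likelihood test, adjusted over the 357029 sites tested.

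The sequences below are the 250 bases in front of each transcription start and the central 300 bases, around the midpoint, of some sites. These are the most accessible HAND1 site, a HAND1 site that closed, and the site upstream of HAND2 that closed most. A link between their words and the changes in accessibility was not tested. The sequences are from GRCh38, and the promoters from RefSeq, with capitals marking E-boxes (CANNTG), a GATA word (AGATAA on either strand) and the palindrome TAATNNNATTA, a pair of homeodomain half-sites.
HAND1 promoter (chr5:154478228-154478477, minus strand): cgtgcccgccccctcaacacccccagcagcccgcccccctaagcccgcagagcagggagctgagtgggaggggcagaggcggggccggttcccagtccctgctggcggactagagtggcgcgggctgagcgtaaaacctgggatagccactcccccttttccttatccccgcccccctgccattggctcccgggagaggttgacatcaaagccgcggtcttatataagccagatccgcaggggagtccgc
HAND2 promoter (chr4:173530230-173530479, minus strand): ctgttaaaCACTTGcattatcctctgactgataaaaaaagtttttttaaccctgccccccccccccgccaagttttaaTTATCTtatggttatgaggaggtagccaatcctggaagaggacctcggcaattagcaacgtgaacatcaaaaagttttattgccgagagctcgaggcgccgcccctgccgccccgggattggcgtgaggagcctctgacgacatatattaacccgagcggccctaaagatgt
HAND1 7.9 kb upstream (chr5:154485927-154486226, plus strand): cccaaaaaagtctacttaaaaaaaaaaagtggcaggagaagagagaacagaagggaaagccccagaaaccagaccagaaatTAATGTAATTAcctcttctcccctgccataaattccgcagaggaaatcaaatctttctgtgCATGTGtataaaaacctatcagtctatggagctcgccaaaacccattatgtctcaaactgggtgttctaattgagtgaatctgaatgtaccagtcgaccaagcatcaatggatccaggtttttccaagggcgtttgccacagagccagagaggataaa
HAND1 27.9 kb upstream (chr5:154505932-154506231, plus strand): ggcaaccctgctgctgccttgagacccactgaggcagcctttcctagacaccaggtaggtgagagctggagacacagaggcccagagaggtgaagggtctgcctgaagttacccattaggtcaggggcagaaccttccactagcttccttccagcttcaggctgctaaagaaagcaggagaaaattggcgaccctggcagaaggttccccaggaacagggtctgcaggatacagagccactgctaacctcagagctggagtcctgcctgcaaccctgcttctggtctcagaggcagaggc
HAND2 27.2 kb upstream (chr4:173557282-173557581, plus strand): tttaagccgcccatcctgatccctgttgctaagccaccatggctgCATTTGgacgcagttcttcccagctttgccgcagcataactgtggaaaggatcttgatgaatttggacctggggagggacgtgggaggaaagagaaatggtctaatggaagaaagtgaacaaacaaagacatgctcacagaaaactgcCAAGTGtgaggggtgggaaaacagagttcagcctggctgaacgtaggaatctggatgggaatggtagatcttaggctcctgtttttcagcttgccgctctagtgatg

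The HAND1 promoter stretch held none of the words searched and had a GC content of 67.2%. The HAND2 promoter stretch held 1 E-box and 1 AGATAA word, at a GC content of 49.6%. Of the same stretch in 35116 RefSeq promoters, 61.8% held an E-box and 9.2% held AGATAA. The centre of the HAND1 site 7.9 kb upstream held 1 E-box and 1 TAATNNNATTA palindrome, which was present in the centres of 1.1% of the sites tested. The centre of the site 27.9 kb upstream held no E-box, and that of the HAND2 site 27.2 kb upstream held 2. Over all 10 sites, 6 held an E-box in the central 300 bases, against 81.9% of the sites tested, and 1 held CATCTG, the E-box variant associated with HAND factors, against 23.0%. The AP-1 word TGANTCA, present in 10.9% of sites, was in none of the 10. Both strands were searched, CATCTG is itself an E-box, and a match is a run of letters rather than a bound site.

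In Control cells the 10 sites ranged from 0.651 to 63.8 CPM. The HAND1 site 7.9 kb upstream (chr5:154484334-154487821, 3488 bases, intergenic) was the most accessible, at percentile 99.9 of all tested sites, and per kb of length it had 18.3 CPM. The HAND1 promoter site (chr5:154476104-154479006) contained the transcription start, the 5′ UTR and exon 1 with the start codon, and was deposited as exonic. It had 14.6 CPM per kb. The site 27.9 kb upstream (chr5:154505264-154506901, intergenic) had 14.1 CPM per kb and the HAND2 promoter site (chr4:173528469-173531775), which contained the start of HAND2 and exon 1 of both HAND2 and HAND2-AS1, had 13.3. Per length, these 4 sites stood at percentiles 98.0 to 98.9 of the tested sites. The remaining HAND1 sites were weaker, at 1.15 to 9.16 CPM per kb.

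After combined silencing, 2 of the 9 HAND1 sites closed and 2 opened, against a background of 10.3% of tested sites closed and 3.43% opened. This background is not matched for accessibility. In Control CPM the site 14.1 kb upstream lay at percentile 30.4 of tested sites and the other HAND1 sites at 76.3 or above. The HAND2 promoter was not called. The 2 HAND1 sites that opened were its promoter and the broad site 7.9 kb upstream, and the 2 that closed were those farthest upstream, at 27.9 and 32.9 kb. The median log2 change was 0.071 over the 9 HAND1 sites and 0.032 over all tested sites. Summed over the 9 sites, HAND1 accessibility was 151 ± 6.04 CPM in Control (SD, n = 3), 161 ± 6.83 with shARID1A/B.2.3 and 176 ± 4.30 with shARID1A/B.4.2, so the sum hid opposite changes.

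**Figure D1:**
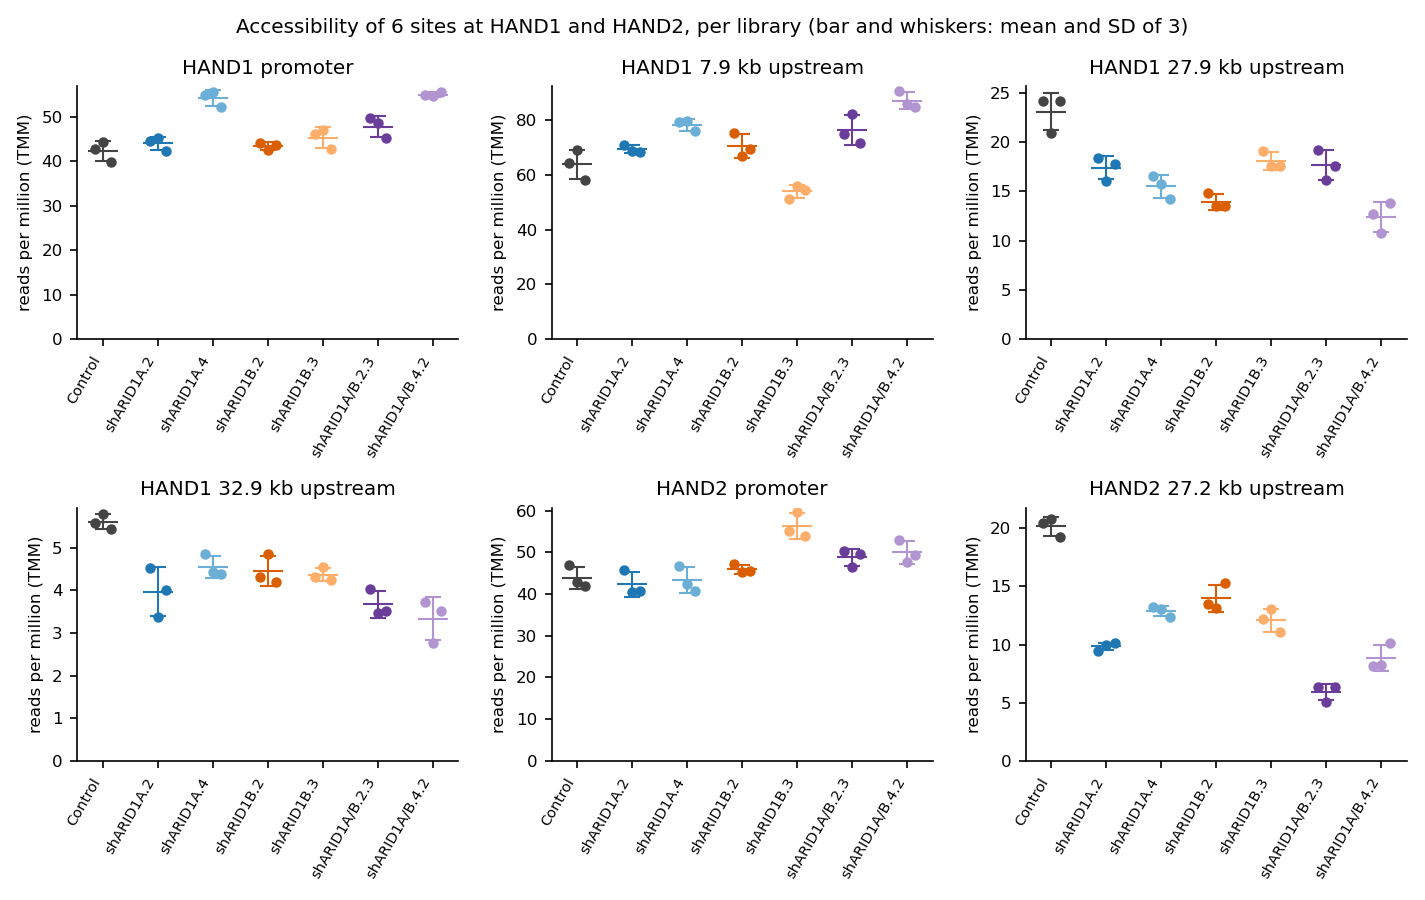
Accessibility (CPM, TMM-scaled, linear axes from 0) of 6 sites in each of the 21 libraries; points are libraries, and the bar and whiskers give the mean and SD of 3. All 6 combination libraries lay above all Control libraries at the HAND1 promoter and 7.9 kb upstream (4.85% of tested sites), and below them at 27.9 and 32.9 kb upstream of HAND1 and 27.2 kb upstream of HAND2 (10.8% of tested sites).

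At the HAND1 promoter, Control libraries had 42.6, 44.3 and 39.8 CPM, shARID1A/B.2.3 libraries 49.6, 48.5 and 45.2, and shARID1A/B.4.2 libraries 54.8, 54.5 and 55.6. Every combination library was thus above every Control library, as at 4.85% of tested sites. Combined silencing gave a log2 change of 0.28 ± 0.07 (SE; FDR 0.0012, edgeR quasi-likelihood test), a gain of 21.3%. With single shRNAs the libraries had 44.5, 45.1 and 42.4 CPM (shARID1A.2), 54.9, 55.6 and 52.2 (shARID1A.4), 44.1, 42.5 and 43.6 (shARID1B.2), and 46.1, 47.0 and 42.6 (shARID1B.3). Only shARID1A.4 among the single shRNAs passed the test (log2 change 0.36 ± 0.08, FDR 5.7e-04 by edgeR; 2.28% of tested sites were opened with it), and of the combinations shARID1A/B.4.2 did (0.38 ± 0.08, FDR 1.3e-04) and shARID1A/B.2.3 did not (0.18 ± 0.08, FDR 0.10). By its name, shARID1A/B.4.2 holds shARID1A.4, and the part of this shRNA in the gain was not tested. The 2 combinations did not differ from each other past the threshold (log2 difference of shARID1A/B.2.3 from shARID1A/B.4.2 of -0.20, 95% interval -0.35 to -0.047, FDR 0.096). Without the third Control library the combined change was 0.23 with an FDR of 0.035 and was no longer called.

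The HAND1 site 7.9 kb upstream behaved in the same direction. It had 64.2, 69.0 and 58.2 CPM in Control, 75.1, 82.2 and 71.6 with shARID1A/B.2.3, and 90.5, 85.9 and 84.7 with shARID1A/B.4.2, again without overlap (4.85% of tested sites). The log2 change was 0.35 ± 0.07 (FDR 2.0e-05, edgeR), a gain of 27.8%, and both combinations passed on their own, shARID1A/B.2.3 by a narrow margin (FDR 0.0090) and shARID1A/B.4.2 with an FDR of 3.2e-06. Single shRNAs gave 71.0, 68.8 and 68.5 CPM (shARID1A.2), 79.3, 79.7 and 75.9 (shARID1A.4), 75.4, 67.0 and 69.6 (shARID1B.2), and 51.3, 56.1 and 54.7 (shARID1B.3). The shARID1B.3 group had a lower mean than Control, whereas the other silenced groups had higher means than Control. Combined silencing left the site higher than the mean of the single-shRNA groups (log2 difference 0.27 ± 0.05, FDR 4.1e-06, edgeR).

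Both opened sites are among the most accessible, and their gain depended on how the libraries were scaled. The share of reads in promoter sites was 20.0% to 20.6% in Control libraries and 23.4% to 25.1% in combination libraries, and its part in the result was not tested. With TMM factors from promoter sites, which moved the median log2 change of all sites from 0.032 to -0.20, the log2 changes were 0.042 at the HAND1 promoter and 0.12 at 7.9 kb upstream. With offsets that follow abundance they were 0.024 and 0.023. Neither site was called in either case. The promoter-scaled changes were above the median of all sites under that scaling, and the abundance-trended ones were below theirs (0.044). With GC offsets the HAND1 promoter was no longer called (0.19, FDR 0.036, edgeR).

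The HAND1 site 27.9 kb upstream showed the reverse change. Control libraries had 24.2, 20.9 and 24.2 CPM, shARID1A/B.2.3 libraries 19.2, 16.2 and 17.6, and shARID1A/B.4.2 libraries 12.7, 10.8 and 13.8. All 6 combination libraries were below all Control libraries, as at 10.8% of tested sites. The combined log2 change was -0.64 ± 0.08 (FDR 8.3e-10, edgeR), and accessibility fell by 35.9%. Single shRNAs gave 18.4, 16.1 and 17.7 CPM (shARID1A.2), 16.6, 15.7 and 14.2 (shARID1A.4), 14.9, 13.5 and 13.5 (shARID1B.2), and 19.1, 17.6 and 17.6 (shARID1B.3). Each of the 4 single shRNAs closed the site by edgeR (FDR 7.5e-08 to 0.0061), whereas DESeq2 did not call it with shARID1B.3.

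The site 32.9 kb upstream (chr5:154510413-154511778, intergenic) was weaker, with 5.58, 5.79 and 5.45 CPM in Control. It had 4.04, 3.46 and 3.52 CPM with shARID1A/B.2.3 and 3.72, 2.76 and 3.53 with shARID1A/B.4.2, without overlap with Control (10.8% of tested sites). The log2 change was -0.68 ± 0.12 (FDR 2.0e-06, edgeR). The single-shRNA libraries ranged from 3.37 to 4.85 CPM, and of these groups only shARID1A.2 was called (-0.50 ± 0.14, FDR 0.0079). Words of 31 bases that occur once in the genome made up 82.4% of this site, against 99.8% of the site 27.9 kb upstream. The treatment of reads with several matches is not stated in the sources used here. Both sites were closed under every scaling, filter and tool tried and without any 1 library, with log2 changes between -0.92 and -0.53.

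The other 5 HAND1 sites were not called after combined silencing and had 0.651 to 7.12 CPM in Control. Those 10.3 kb downstream (log2 change 0.28 ± 0.10, FDR 0.038), 14.1 kb upstream (0.29 ± 0.27) and 21 kb upstream (0.07 ± 0.14) had positive values. Those 6.9 kb downstream (-0.33 ± 0.15) and 15.6 kb upstream (-0.41 ± 0.16, FDR 0.064) had negative ones. The 95% interval at the site 14.1 kb upstream ran from -0.23 to 0.82, so a gain as large as at the called opened sites was not detectable at this depth. The site 10.3 kb downstream was opened with shARID1A/B.4.2 tested apart (0.40 ± 0.12, FDR 0.0076, edgeR) and with shARID1A.4, by name a part of that pair.

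**Figure D2:**
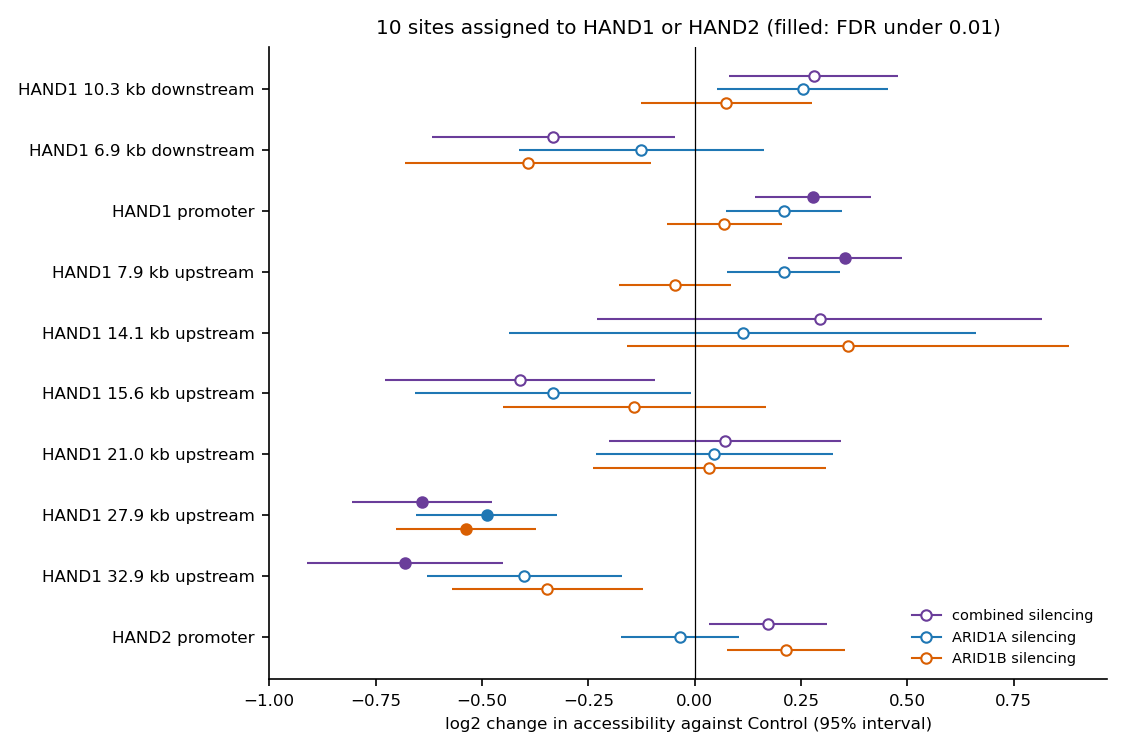
Log2 change against Control at each of the 10 sites after combined, ARID1A and ARID1B silencing; points are edgeR estimates, lines 95% intervals, and filled points have an FDR under 0.01. Filled points are at the HAND1 promoter and 7.9 kb upstream to the right of 0, and at 27.9 and 32.9 kb upstream to the left.

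The HAND2 promoter had 47.0, 42.8 and 42.0 CPM in Control, 50.4, 46.6 and 49.6 with shARID1A/B.2.3, and 53.0, 47.8 and 49.3 with shARID1A/B.4.2. Of the combination libraries, 5 were above every Control library and 1 was within their range. The log2 change of 0.17 ± 0.07 (95% interval 0.033 to 0.31) did not pass the test (FDR 0.080, edgeR; unadjusted p under 0.05; not called by DESeq2), and it turned to -0.063 with promoter-based factors, above the median of all sites there (-0.20), and to -0.081 with abundance-trended offsets, below the median there (0.044). Single shRNAs gave 45.7, 40.5 and 40.8 CPM (shARID1A.2), 46.8, 42.5 and 40.7 (shARID1A.4), 47.2, 45.3 and 45.5 (shARID1B.2), and 55.2, 59.8 and 54.1 (shARID1B.3). Among the single shRNAs and combinations, the HAND2 promoter was called with shARID1B.3 and no other (0.36 ± 0.08, FDR 5.0e-04, edgeR). With shARID1B.3, 3.12% of tested sites were opened.

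Each combination was tested apart. The shARID1A/B.2.3 pair had 2 closed members among the 10 (10.4% of tested sites) and 1 opened member (2.85%). For shARID1A/B.4.2 these counts were 2 (7.37%) and 3 (3.97%). The closed sites were those 27.9 and 32.9 kb upstream of HAND1 with either combination. Leaving out the first Control library or the second shARID1A/B.2.3 library lowered the closed count with shARID1A/B.2.3 from 2 to 1, and each of these, or leaving out the third Control library, lowered its opened count from 1 to 0.

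Among single shRNAs, shARID1A.2 had 2 closed members of the 10 and no opened one (4.54% and 0.834% of tested sites), and shARID1A.4 had 1 closed and 3 opened members (4.17% and 2.28%). The shRNA shARID1B.2 had 1 closed member and no opened one (1.84% and 1.34%), and shARID1B.3 had 1 of each kind (4.88% and 3.12%). DESeq2 called 1 closed with shARID1A.2 and 0 with shARID1B.3, and the same closed counts as edgeR with the other two. By edgeR each of the 4 closed the HAND1 site 27.9 kb upstream, and shARID1A.4 opened the HAND1 promoter and the sites 7.9 kb upstream and 10.3 kb downstream. At an unadjusted p under 0.05, none of the 10 was higher with shARID1A.2 or shARID1B.2, and DESeq2 called none opened there. The single-gene comparisons used the mean of both shRNAs of a gene against Control. ARID1A silencing closed 1 of the 10 sites (5.37% of tested sites closed and 1.67% opened) and ARID1B silencing closed 1 (3.53% closed and 1.39% opened), in both cases the HAND1 site 27.9 kb upstream. Its log2 change was -0.49 ± 0.08 for ARID1A (FDR 5.1e-06, edgeR) and -0.54 ± 0.08 for ARID1B (FDR 6.5e-07), and the 2 did not differ past the threshold (difference 0.048, 95% interval -0.092 to 0.19). Neither comparison opened any of the 10 by edgeR, although at an unadjusted p under 0.05 there were 3 higher for ARID1A and 1 for ARID1B, and DESeq2 called 2 opened for ARID1A and 0 for ARID1B. In the whole series DESeq2 called 4958 of 253199 sites opened for ARID1A and 3466 of 287809 for ARID1B. No share over all sites is given for counts at an unadjusted p, here or elsewhere. DESeq2 totals are given for combined, ARID1A and ARID1B silencing only. Without the first shARID1A.2 library, 2 sites were closed after ARID1A silencing, and without the second Control or the second shARID1A.2 library 1 site was opened. In the whole series these fits closed 17974 sites, and opened 2639 and 9317, in that order.

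Combined silencing was also set against the mean of the 4 single-shRNA groups. The HAND1 site 32.9 kb upstream was lower (log2 difference -0.31 ± 0.09, FDR 0.0097, edgeR; 6.85% of tested sites lower), a call that DESeq2 did not make and that was lost when any 1 of 16 of the 18 libraries was left out. The site 7.9 kb upstream was higher (0.969% of tested sites higher). At 27.9 kb upstream, combined silencing was 0.13 lower on the log2 scale than single silencing, with a 95% interval from -0.25 to -0.0063 and an FDR of 0.19. The combined change was then compared with the ARID1A change plus the ARID1B change. No member departed from the sum by edgeR or DESeq2 (0.516% of tested sites did), with 2 members above it at an unadjusted p under 0.05. The largest departure was at 27.9 kb upstream, where the combined change was 0.39 ± 0.11 less negative than the sum (FDR 0.054).

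The mean of the ARID1A shRNA groups and that of the ARID1B shRNA groups differed at 2 of the 10 sites, in opposite directions. The test takes its error from libraries within groups, so the spread between shRNAs of a gene is not in it. At 7.9 kb upstream of HAND1, accessibility was higher after ARID1A than after ARID1B silencing (log2 difference 0.26 ± 0.06, FDR 4.6e-04, edgeR; 1.05% of tested sites were higher). At the HAND2 promoter it was lower (-0.25 ± 0.06, FDR 0.0014; 3.69% lower), a difference that was no longer called without the second shARID1B.3 library (-0.22, FDR 0.011). The shRNAs against ARID1B also differed from each other at both sites. At 7.9 kb upstream the means were 69.4 CPM (shARID1A.2), 78.3 (shARID1A.4), 70.6 (shARID1B.2) and 54.0 (shARID1B.3). At the HAND2 promoter they were 42.3, 43.4, 46.0 and 56.4 CPM in the same order. With shARID1B.3 the 7.9 kb site was lower than with shARID1B.2 (log2 difference -0.39 ± 0.08, FDR 1.1e-04; 4.25% of tested sites lower) and the HAND2 promoter higher (0.29 ± 0.08, FDR 0.0071; 2.96% higher). The HAND2 call was lost when any library of these 2 groups other than the third of shARID1B.3 was left out (0.26 to 0.32, FDR 0.013 to 0.051), and with promoter-based, abundance-trended or GC scaling (0.18 to 0.20, FDR 0.018 to 0.10). The site 27.9 kb upstream of HAND1 was higher with shARID1B.3 than with shARID1B.2 (0.38 ± 0.10, FDR 0.0052), which was lost without the second or the third shARID1B.2 library or the first shARID1B.3 library (0.34 to 0.35, FDR 0.031 to 0.043) and with promoter-based or GC scaling (0.27 and 0.28, FDR 0.019 and 0.018). It was likewise higher with shARID1A/B.2.3 than with shARID1A/B.4.2 (0.50 ± 0.10, FDR 1.5e-04; 1.43% of tested sites higher), the only one of the 10 at which the combinations differed past the threshold (none was lower, against 3.79% of tested sites, with 3 lower at an unadjusted p under 0.05 and 0 by DESeq2), and this call was lost without the second shARID1A/B.4.2 library (0.40, FDR 0.016). By name shARID1A/B.2.3 holds shARID1B.3 and shARID1A/B.4.2 holds shARID1B.2, and the part of these shRNAs in that difference was not tested. The shRNAs against ARID1A, shARID1A.2 and shARID1A.4, differed at none of the 10 by edgeR (1.84% of tested sites were lower with shARID1A.2 and 0.737% higher). At an unadjusted p under 0.05, 3 were lower and 0 higher with shARID1A.2, and DESeq2 called 2 lower. The nearest to the threshold were the HAND1 promoter (log2 difference -0.30 ± 0.08, FDR 0.010, edgeR) and the site 10.3 kb downstream (-0.44 ± 0.12, FDR 0.011). The 2 shARID1B.3 libraries numbered 1 and 2 were among the deepest of the series, and the part of depth in these differences was not tested.

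HAND2-AS1, a long non-coding RNA gene transcribed away from HAND2, covers the stretch upstream of HAND2 in the gene annotation, so that all 14 of its sites lie in its gene body. After combined silencing 3 of the 14 closed and none opened, against the background of 10.3% closed and 3.43% opened given above. At an unadjusted p under 0.05 there were 5 lower and 0 higher, and DESeq2 made the same counts of calls, 3 and 0. Of all 357029 sites, DESeq2 called 30343 closed and 9307 opened. The median log2 change of the 14 was -0.22. These sites were chosen as context by their gene name, and the 3 are those called.

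The site 27.2 kb upstream of HAND2 (chr4:173556440-173558425), whose centre is printed above, closed the most. Control libraries had 20.5, 20.8 and 19.2 CPM, shARID1A/B.2.3 libraries 6.30, 5.09 and 6.33, and shARID1A/B.4.2 libraries 8.15, 8.24 and 10.1. The combined log2 change was -1.49 ± 0.09 (FDR 4.5e-26, edgeR), with every combination library below every Control library, as at 10.8% of tested sites. Single silencing also closed it, by -0.84 ± 0.09 for ARID1A (FDR 1.2e-12) and -0.63 ± 0.09 for ARID1B (FDR 2.2e-08), and combined silencing left it lower than the single-shRNA groups (-0.76 ± 0.07, FDR 4.4e-15). The departure of the combined change from the sum of the single ones was -0.022, with a 95% interval from -0.25 to 0.21.

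The site 42.2 kb upstream of HAND2 (chr4:173570644-173574281) had 7.31, 6.70 and 6.93 CPM in Control, 4.37, 3.93 and 4.18 with shARID1A/B.2.3, and 3.54, 4.60 and 4.92 with shARID1A/B.4.2, again without overlap (10.8% of tested sites). The site 17.9 kb upstream, which was not called, also had all 6 combination libraries below Control. The site 42.2 kb upstream is described further here. It closed by 0.72 on the log2 scale (log2 change -0.72 ± 0.11, FDR 9.5e-08, edgeR). It closed after ARID1A silencing (-0.58 ± 0.11, FDR 4.6e-05), its change after ARID1B silencing was -0.12 ± 0.11 (FDR 0.60), and the difference between them passed the test (-0.46 ± 0.09, FDR 1.7e-04). The ARID1B value averages -0.34 ± 0.13 for shARID1B.2 and 0.10 ± 0.12 for shARID1B.3, neither called, which differed from each other by edgeR (0.44 ± 0.12, FDR 0.0075) and not by DESeq2. The site 13.8 kb upstream, at 3.26 CPM in Control, closed by -0.61 ± 0.15 (FDR 6.4e-04). The change was -0.92 ± 0.17 with shARID1A/B.2.3 (FDR 9.5e-06) and -0.30 ± 0.17 with shARID1A/B.4.2 (FDR 0.25, not called). The combined call was lost without the second Control library (-0.54, FDR 0.014). The 7.8 kb site, the most accessible of the HAND2-AS1 sites with 24.2 CPM, was not called.

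**Figure D3:**
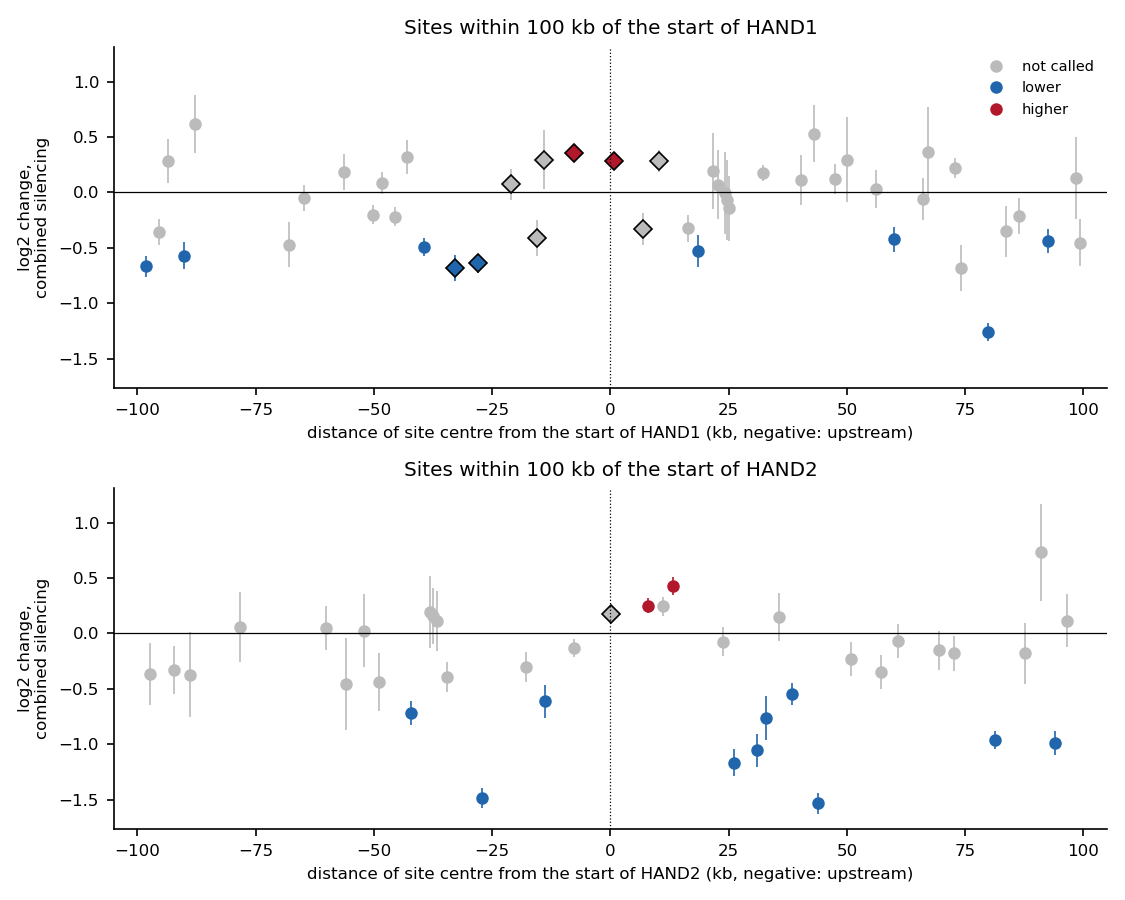
Log2 change after combined silencing (± SE) of every tested site within 100 kb of the starts of HAND1 and HAND2, against distance in kb with upstream negative; diamonds are sites named for HAND1 or HAND2, blue sites closed and red sites opened at an FDR under 0.01. Closed sites lie on both sides of either gene and the opened ones within 13.3 kb of its start.

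Within 100 kb of the start of HAND1, 9 of 46 tested sites closed and 2 opened (10.3% and 3.43% of all tested sites), the latter being the promoter and the site 7.9 kb upstream. A site 79.9 kb downstream, named for SAP30L-AS1, closed the most, with means of 26.3 CPM in Control and 10.5 and 11.5 CPM in the 2 combinations (log2 change -1.26 ± 0.08, FDR 2.9e-24, edgeR). Next to the closed HAND1 sites, a site 39.5 kb upstream named for LOC102724091 also closed, from 28.4 to 19.9 and 20.5 CPM (-0.49 ± 0.08, FDR 2.5e-07). Within 100 kb of the start of HAND2, 10 of 38 tested sites closed and 2 opened, beside the same background, with a median log2 change of -0.21. The opened sites were 7.9 and 13.3 kb downstream and named for LOC101928439, with log2 changes of 0.25 ± 0.07 (FDR 0.0041) and 0.43 ± 0.08 (FDR 2.1e-05). Downstream, a site at 43.9 kb named for SCRG1 went from 15.3 CPM to 4.69 and 6.02 (-1.53 ± 0.09, FDR 3.0e-25), a change of the size seen 27.2 kb upstream. These sites were named after their values were seen.

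**Figure D4:**
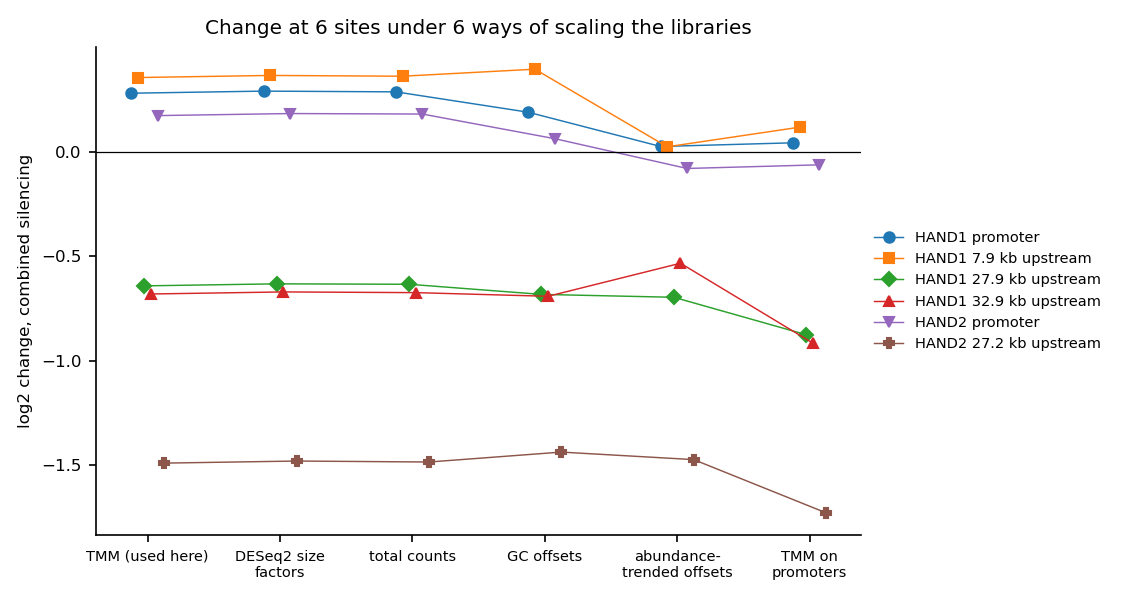
Log2 change after combined silencing at 6 sites under 6 ways of scaling the libraries. The closed sites stay between -1.73 and -0.53 under all 6, whereas the HAND1 promoter and 7.9 kb site lie at 0.024 and 0.023 with abundance-trended offsets and the HAND2 promoter is at -0.081 there and -0.063 with promoter-based factors.

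The genes that work with the HAND factors were read in the same way. The E-proteins, ID proteins and Twist factors (TCF3, TCF4, TCF12, ID1 to ID4, TWIST1 and TWIST2) had 127 tested sites, of which 24 closed (18.9%) and 7 opened (5.51%) after combined silencing, beside 10.3% and 3.43% of all tested sites, with a median log2 change of -0.14. TWIST1, the Twist-family relative of the HAND genes, took up 12 of the closed sites out of 29 tested, and TCF12 had 3 closed of 13. ID2 had 3 closed of 25, ID4 3 of 20, TCF4 1 of 19, ID1 1 of 3 and TWIST2 1 of 4. ID1, ID4 and TCF4 had 1 opened site each. ID3 and TCF3 had 2 opened and no closed sites each, of 6 and 8 tested. The catecholamine genes TH, DBH, DDC, SLC18A1 and SLC18A2, which encode the enzymes and vesicle transporters of noradrenaline-producing cells, had 10 closed (14.9%) of 67 by edgeR and 9 by DESeq2, and none opened by either, with 6 higher at an unadjusted p under 0.05. Over all tested sites the shares were 10.3% and 3.43% by edgeR, and DESeq2 called 30343 of 357029 closed and 9307 opened. The dopamine beta-hydroxylase gene DBH had 3 closed of 5, and neither site of TH was called. These lists share the Control libraries with the HAND sites and hold sites of unequal number per gene.

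Across the 21 libraries, the summed accessibility of the HAND1 sites was most like that of CCDC91 (Pearson r = 0.90), TMEM168 (0.89) and API5 (0.89) among 14632 genes with at least 5 tested sites. The single HAND2 site was most like the sums of MAL (0.88), IGF2R (0.83) and H1FNT (0.82). Libraries of a group and their scaling are shared by all genes, and these values are descriptions.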

How the data were processed

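ATAC-Seq, which cuts and tags open DNA with the Tn5 transposase, was performed on 21 SK-N-BE(2) libraries. The authors deposited raw read counts per library over 1 consensus set of 367900 sites, aligned to GRCh38 per the labels, with DESeq2 named in the submitters' processing notes. Which aligner and peak caller were used, and whether duplicates were removed or reads shifted for Tn5, is not given in the sources used here. A deposited site annotation (HOMER) holds the nearest gene and the distance to its start in bases, an annotation value used as deposited. The authors also deposited signal columns (counts scaled between libraries) beside log2 ratios and p-values of their own comparisons, and none of these was used. No column was left without a sample (0 columns). Some context genes, and a list that held them, are not reported here.

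The members are the sites whose nearest gene is HAND1 or HAND2. The members and all lists were chosen with earlier results of these data known. Sites were named as the promoter site, the site nearest the start, the 3 most accessible in Control, and up to 6 called after combined silencing, per gene. Counts were tested with edgeR 4.0.16 under R 4.3.3 (quasi-likelihood test, TMM scaling, filterByExpr with a minimum count of 10, Benjamini-Hochberg adjustment) in 1 model of 7 groups without covariates, which removed 10871 sites and tested 357029. Calls used an FDR under 0.01, and FDR always means an edgeR adjusted p unless DESeq2 (1.42.0) is named. Combined silencing is the mean of both combinations against Control, and single-gene silencing the mean of both shRNAs of the gene. Standard errors and 95% intervals come from the test statistic. Like the FDRs, they rest on the spread between libraries within groups and do not count the spread between shRNAs of a gene. The consensus set was made over all groups. TMM scaling rests on the bulk of sites being unchanged, so a shift common to them would be hidden.

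The labels call the 3 libraries of a group biological replicates. Every pair of them differed by more than counting noise (chi-square per degree of freedom 1.08 to 2.50), so each was counted. The number of reads over sites, 16140029 to 44472230 per library, limits the weak sites most, and counting error does not include PCR duplicates. On simulated counts for 60000 sites of the combined comparison, with 200 sites changed, 100% of 4-fold and 84% of 2-fold changes were called. The simulated sites were drawn from those above a minimum read total, so the weakest sites were not covered. Changes under 2-fold, such as those called at the HAND1 sites, were not simulated. Sequences and words were read from GRCh38 and from RefSeq (GRCh38 promoters), gene parts from GENCODE, and uniqueness from all words of 31 bases on both strands. The alternatives were other scalings, no count filter, DESeq2, other thresholds, the replicate number as a block, fits of the compared groups only, and leaving out each library. Those for differences between silenced groups and for the HAND2-AS1 sites, and a dispersion trend from 40000 sites used in the leave-out fits, were added after seeing the data.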

Additional observations from a re-analysis of the deposited data

Results flagged for a closer look

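Effects of the same kind differed between silenced groups at 3 of the sites, each by edgeR's test of the difference. At the HAND1 site 7.9 kb upstream, the change after ARID1A silencing exceeded that after ARID1B silencing by 0.26 on the log2 scale (FDR 4.6e-04), and shARID1B.3 differed from shARID1B.2 by -0.39 (FDR 1.1e-04). At the HAND2 promoter the corresponding differences were -0.25 (FDR 0.0014) and 0.29 (FDR 0.0071). The first was lost without 1 library and the second without any of 5 of the 6 libraries compared (FDR up to 0.051). At the HAND1 site 27.9 kb upstream, shARID1B.3 differed from shARID1B.2 by 0.38 (FDR 0.0052), lost without any of 3 of the 6 libraries. There shARID1A/B.2.3 differed from shARID1A/B.4.2 by 0.50 (FDR 1.5e-04), lost without 1 library (FDR 0.016). Among the ARID1B shRNAs, shARID1B.3 had the higher value at the HAND2 promoter and 27.9 kb upstream of HAND1 and the lower one 7.9 kb upstream of HAND1.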

How the results depend on the processing

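The 2 closed HAND1 sites kept their calls under all scalings and without each library, but combined changes were under 1 on the log2 scale, so requiring a log2 change of at least 1 left 0 calls in each comparison. With TMM factors from promoter sites, the series had 56825 sites closed and 2601 opened in place of 36610 and 12247. The HAND1 counts after combined silencing became 4 closed and 0 opened, the shARID1A/B.2.3 and shARID1A/B.4.2 opened counts 0, ARID1A closed 3, ARID1B closed 2, combined lower than single 2, shARID1B.3 against shARID1B.2 1, and departure from the sum 1. In the whole series ARID1A silencing then closed 34100 sites and ARID1B silencing 20590. The HAND2 promoter turned to -0.063. With abundance-trended offsets it turned to -0.081, HAND1 opened became 1 (the site 10.3 kb downstream in place of the 2 others), shARID1A/B.2.3 closed 1 and opened 0, shARID1A/B.4.2 opened 1, ARID1A closed 2, combined lower than single 0, ARID1A against ARID1B 1 and departure 1. The series then had 34534 sites closed and 15233 opened after combined silencing, and 18638 closed after ARID1A silencing. With GC offsets, HAND1 opened became 1 (the promoter was lost), ARID1A closed 2 and opened 1, shARID1A.2 against shARID1A.4 1, shARID1B.3 against shARID1B.2 1 and departure 1. The series then had 12035 sites opened after combined silencing, and 18838 closed and 5093 opened after ARID1A silencing. With total counts, shARID1A/B.2.3 opened became 2, ARID1A closed 2 and opened 1, combined lower than single 0 and higher 2. The series then had 20058 sites closed and 7590 opened after ARID1A silencing. With only the groups compared, shARID1A/B.2.3 opened became 0 and shARID1A.2 against shARID1A.4 1. DESeq2 gave 2 opened after ARID1A silencing, 0 lower after combined than single silencing and 2 for shARID1A.2 against shARID1A.4. At an FDR under 0.05, ARID1A silencing closed 2 and opened 2, ARID1B silencing closed 2 and opened 1, 2 were higher after combined than single silencing, and 2 differed between shARID1A.2 and shARID1A.4. Totals over all sites are not given at that FDR, nor for the other comparisons under these settings. The cause was not tested.

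Leaving out 1 library gave 1 to 2 opened HAND1 sites after combined silencing, 1 to 3 closed and 0 to 1 opened with shARID1A/B.2.3, 1 to 2 closed and 0 to 1 opened after ARID1A silencing, 0 to 1 lower after combined than single silencing, 1 to 2 differing between ARID1A and ARID1B, 1 to 3 between shARID1B.3 and shARID1B.2, and 0 to 1 between the combinations. In the whole series these fits opened 9394 to 16729 sites after combined silencing. After ARID1A silencing they closed 14437 to 17974 and opened 2639 to 9317.

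Correlations of deviations from the group mean had medians of 0.005, 0.030 and 0.007 among same-numbered libraries, for the 3 numbers. The median with different numbers was -0.006. Of 21 pairs per number, 6, 5 and 1 were over 0.1, against 18 of 126 pairs with different numbers. The largest was 0.47 for number 2, against 0.26 with different numbers, and 12 of 21 libraries were closest to their own number. Whether the numbers pair the libraries was not settled by these values, so a block was fitted as an alternative. With the replicate block, 2 sites closed after ARID1A silencing in place of 1, shARID1A.2 and shARID1A.4 differed at 2 in place of 0, and no other count changed by over 1.5 times. In the whole series ARID1A silencing closed 20169 sites with the block, in place of 19189.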
